A study of Homo sapiens with 12 samples.

Results

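OCI-AML3 is an established human acute myeloid leukaemia line that is known to carry an activating NRAS mutation and mutated NPM1. The comparison described here is of 6 of the 12 RNA-seq libraries of the series, taken by their treatment labels, with all genes kept: 3 libraries of cells given venetoclax (ABT199) together with an ERK inhibitor (ERKi, labelled compound 27), called the combination, against 3 libraries of cells given ERKi alone. All cells were treated for 24 h, and both groups received ERKi, so the difference is read as what venetoclax adds in the presence of ERKi. Of the other 6 libraries, 3 had venetoclax alone and 3 had DMSO, the vehicle. They shared the model and are printed as levels. The labels name no dose, so an equal dose of ERKi in both groups is assumed. One cell line is a narrow model, and nothing in the labels says that the 3 libraries of a group came from separate cultures, so p-values measure only the spread between these libraries, which may be technical.

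Venetoclax is a BH3 mimetic. It fills the groove of BCL2 that otherwise holds BH3-only proteins such as BIM, and the released BH3-only proteins activate BAX and BAK at the mitochondrial outer membrane. ERK1 and ERK2 are the last kinases of the RAS, RAF and MEK cascade: they drive entry into the cell cycle through MYC and cyclin D1, mark BIM for degradation and induce the phosphatases and Sprouty proteins that brake the cascade. Cells that leave the cycle repress replication genes through E2F and RB proteins and mitotic genes through the DREAM complex, which binds CHR elements, and p21 (CDKN1A), a p53 target, holds both in that state. The title of the study is about Drp1-dependent mitochondrial fission. RNA counts measure neither Drp1 protein nor the shape of mitochondria.

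The 6 libraries held 19199296 to 20577870 counts, and a gene had to reach about 10 counts in 3 libraries to be tested, which 15173 did. In a principal component analysis of the genes that varied most over these 6 libraries, the first component held 77.8% of the variance and separated the groups. That choice of genes favours those that differ between the groups, so the percentage does not hold for all genes. CPM are counts in 1000000 of the library total, which was scaled except for the marker sums of this paragraph. Scaling, with factors of 0.9624 to 0.9806 in the combination and 1.053 to 1.059 in ERKi, would raise the combination sums and lower the ERKi sums. Myeloid markers summed to 7170 to 7340 CPM in the combination and 6300 to 6480 CPM in ERKi, with all 12 markers measured. T and NK cell, B cell, erythroid, megakaryocyte and epithelial markers summed to less than 6 CPM in each of the 6 libraries. Endothelial markers summed to 90.2, 85 and 94.7 CPM in the combination and 77.5, 81 and 79.7 CPM in ERKi, nearly all of it PECAM1, which myeloid cells also express and which was higher by 0.3, while CDH5 had 0 counts in all 6. Stromal markers summed to 4.11, 5.0 and 4.51 CPM in the combination and 24.0, 16.7 and 43.3 CPM in ERKi, and 8 of 12 were lower. COL1A2, the most counted of them, held 12, 18 and 13 counts in the combination and 170, 164 and 316 in ERKi. Their part in the results was not tested, and no collagen gene is named further. POSTN and THY1, which also mark fibroblasts, had 0 counts in all 3 combination libraries.

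Adding venetoclax to ERKi changed the RNA of 7717 of 15173 genes, or 50.9%, by edgeR's quasi-likelihood test at a Benjamini-Hochberg adjusted p under 0.05, the rule behind every call below. Of these, 4023 (26.5%) were higher and 3694 (24.3%) lower in the combination. Most shifts were small: the lower and upper quartiles of all log2 fold changes were -0.31 and 0.3, and a change beyond 1.5-fold was called for 350 genes higher (2.31%) and 463 lower (3.05%). The replicates were close enough, with a biological coefficient of variation of 0.0727, that shifts well below 1.5-fold passed the test. The proportion of a list that is called therefore has to be read against these percentages. They are over all genes tested, and calls depended on level. In the highest of 5 bands of expression level 39.9% of genes were higher and 27.3% lower, and in the lowest band 7.15% and 13.3%. Lists were not compared with genes of like level, so for highly expressed lists 26.5% is a low background for rises. Libraries of the 2 groups did not overlap for 9247 of the 15173 genes. The ranks among all called genes took only such genes, so lack of overlap adds no support to them. In bulk RNA, fewer cells of a kind and less RNA per cell cannot be told apart. Genes were named by rank among all called genes or within lists, or because they were fixed for the interaction test, and further genes, such as PLK1, MYBL2, MCM7, FAS, PERP, ETV4 and IFIT1, were chosen after their values were seen to show a role.

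**Figure D1:**
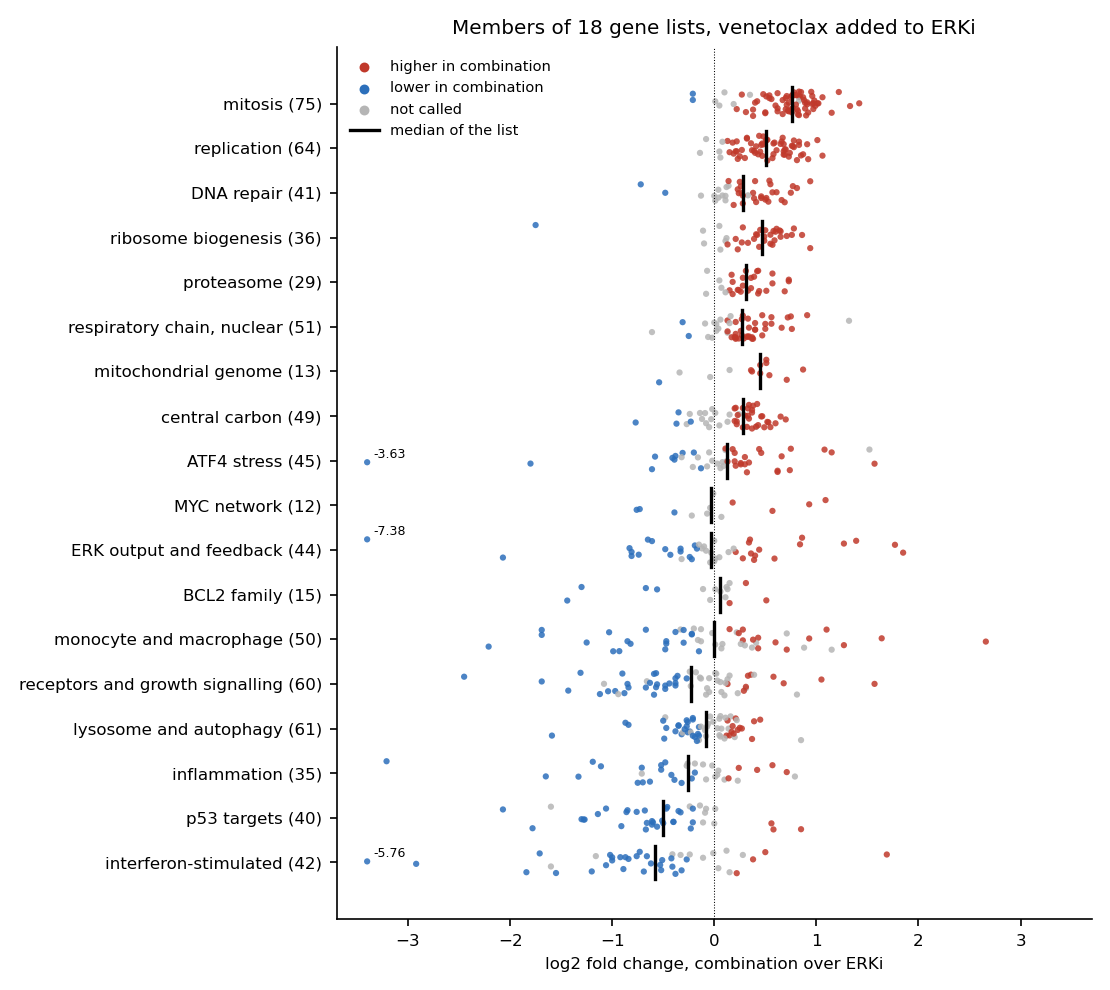
Log2 fold change (combination over ERKi) of every measured member of 18 gene lists, 1 point per gene, with the number measured in brackets; red points were called higher, blue points lower, grey points not called, and the black line is the list's median. Values beyond the left edge are printed beside their points. Mitosis and replication members lie almost wholly to the right of 0, p53 targets and interferon-stimulated genes mostly to the left, and the BCL2 family and ERK output genes on both sides.

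Mitotic genes were higher in the combination than in ERKi. Of 75 listed genes, 67 were higher, 2 lower and 6 not called, with a median log2 fold change of 0.76 against -0.003 over all genes tested, and 39 were higher beyond 1.5-fold. All 12 mitotic kinases and cyclins were higher, as were 10 of 11 genes of the spindle checkpoint and anaphase promoting complex, 12 of 13 kinesins, 11 of 12 kinetochore genes and all 13 of spindle assembly and cytokinesis. Summed over the list, the combination libraries held 8893, 8718 and 8951 CPM, against 5602, 5625 and 5569 CPM with ERKi. Venetoclax alone held 13640, 13460 and 13680 CPM and DMSO 12380, 13120 and 13100 CPM, so the combination stayed below every library without ERKi.

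CDC20, on chromosome 1 (43358981 to 43363203, GRCh38), encodes the activator that lets the anaphase promoting complex end metaphase. It had 128, 128 and 135 CPM in the combination and 47.5, 49.1 and 49.5 CPM in ERKi, which is 1.42 higher on the log2 scale (SE 0.0704, adjusted p = 3.49e-10). PLK1, the polo kinase of mitotic entry, had 158, 164 and 166 CPM in the combination and 67.1, 64.4 and 62.8 CPM in ERKi (log2 fold change 1.33, SE 0.0716, adjusted p = 8.06e-10). In both genes the groups lay far apart relative to the spread within them. KIF20A, a kinesin of the central spindle that cytokinesis needs, had 90.8, 89.2 and 90.1 CPM in the combination and 44.3, 46.7 and 46.5 CPM in ERKi, and its log2 fold change was 0.97 (SE 0.0478, adjusted p = 3.18e-10). CCNB1, cyclin B1, was at 151 ± 3.21 CPM in the combination and 84.6 ± 1.97 CPM in ERKi (SD, n = 3 each), a log2 fold change of 0.84. BIRC5 (survivin, a part of the chromosomal passenger complex) was higher by 1.02, UBE2C (the ubiquitin carrier of the anaphase promoting complex) by 0.99, the condensin subunits NCAPH by 0.97 and NCAPD2 by 0.78, and the spindle protein NUSAP1 by 0.77. MKI67, the proliferation marker Ki-67, had 490, 420 and 432 CPM in the combination and 238, 246 and 246 CPM in ERKi, without overlap.

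The transcription factors of the programme split. MYBL2 (B-Myb), which turns the DREAM core into an activator, was at 123 ± 0.44 CPM in the combination and 52.5 ± 0.69 CPM in ERKi (SD, n = 3 each; log2 fold change 1.22, adjusted p = 7.82e-10), and FOXM1, which acts with it in G2, was higher by 0.96. LIN52, a subunit of the core itself, was at -0.21, a call that was lost with DESeq2 (adjusted p = 0.0589) and without the filter on low counts (0.178). SMC4, shared by both condensins, was the other lower gene of the list, at -0.21.

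The promoters of this list carry the elements known from cell cycle genes, and 3 windows are printed because nearly all measured genes of mitosis and replication were higher. Sequences are from RefSeq (GRCh38.p14), from 250 bases before to 50 after the annotated gene start, 5′ to 3′ on the gene's own strand; positions count from the start as 1, and the base before it is -1. Capitals mark, in CDC20 (chr1:43358731-43359030, plus strand) and PLK1 (chr16:23678639-23678938, plus strand), the CHR letters TTTGAA and the CCAAT box, and in MCM7 (chr7:100101348-100101647, minus strand) E2F letters, which were searched as TTTGGCGC, TTTCCCGC and TTTCGCGC. All motifs were searched on both strands, so that TTCAAA and ATTGG also count.
CDC20: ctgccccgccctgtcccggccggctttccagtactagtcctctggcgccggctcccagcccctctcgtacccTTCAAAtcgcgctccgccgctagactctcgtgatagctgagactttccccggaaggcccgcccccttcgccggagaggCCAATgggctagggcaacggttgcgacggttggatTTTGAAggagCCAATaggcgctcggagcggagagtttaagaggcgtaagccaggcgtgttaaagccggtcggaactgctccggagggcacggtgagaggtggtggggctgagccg
PLK1: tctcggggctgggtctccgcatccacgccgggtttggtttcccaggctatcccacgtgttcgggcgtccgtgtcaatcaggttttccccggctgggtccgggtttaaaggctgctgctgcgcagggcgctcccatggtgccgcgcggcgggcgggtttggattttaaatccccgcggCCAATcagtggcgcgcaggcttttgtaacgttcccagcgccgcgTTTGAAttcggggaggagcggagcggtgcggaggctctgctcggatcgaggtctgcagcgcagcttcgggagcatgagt
MCM7: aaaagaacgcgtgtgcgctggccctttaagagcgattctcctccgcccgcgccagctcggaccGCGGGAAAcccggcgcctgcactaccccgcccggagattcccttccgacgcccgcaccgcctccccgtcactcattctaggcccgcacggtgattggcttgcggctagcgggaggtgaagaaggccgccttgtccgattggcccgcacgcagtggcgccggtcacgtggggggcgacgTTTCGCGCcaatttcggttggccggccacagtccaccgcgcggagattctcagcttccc
In PLK1 the CCAAT box lies at -73 to -69 and the CHR letters at -29 to -24. In CDC20 the 4 capital runs start at -178, -100, -65 and -55. Of the 75 mitosis genes, 64 had a promoter in the table, and 41 of these (64.1%) held CHR letters, against 15.4% of all 27305 promoters and 9.93% of the 11022 promoters of tested genes. CCAAT boxes stood in 44 of the 64 (68.8%), against 35.7% of all promoters. KIF20A had no CHR letters in its window. A match says only that the letters are there.

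Replication genes were higher as well, in 59 of 64 cases with 0 lower and a median of 0.51. All 11 origin licensing genes, all 12 of helicase activation and the fork, all 6 of chromatin assembly, 17 of 19 polymerase and clamp genes and 13 of 16 nucleotide synthesis genes were called. MCM2, on chromosome 3 (127598411 to 127622436), is a subunit of the ring helicase that licenses origins, and had 105, 109 and 112 CPM in the combination and 56.8, 59.3 and 57.1 CPM in ERKi (log2 fold change 0.91, SE 0.0493, adjusted p = 8.26e-10). MCM7, of the same ring, had 478, 489 and 499 CPM in the combination and 257, 260 and 255 CPM in ERKi (0.92, SE 0.0593, adjusted p = 4.31e-09). The libraries of the groups did not overlap for either gene. CDC45, which activates that helicase, was higher by 1.01, TK1 (thymidine kinase) by 1.06, MCM3 by 0.68 and MCM4 by 0.66. CTPS1 and CAD, which make pyrimidine nucleotides, were higher by 0.74 and 0.76, and UHRF1, which copies DNA methylation at the fork, by 0.77. PCNA, the sliding clamp, moved little, by 0.21. TYMS, thymidylate synthase, was at 0.05 and not called (adjusted p = 0.737).

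The 2 E2F runs of MCM7 lie at -187 to -180 and -9 to -2. In the replication list 22 of 56 promoters found (39.3%) held E2F letters, against 2.79% of all promoters and 4.69% of those of tested genes, while CHR letters stood in 7.14%. In the mitosis list E2F letters stood in 7.81%.

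The level of these genes in the combination still lay well under that of cells without ERKi. MCM2 averaged 250 CPM with venetoclax alone and 251 CPM with DMSO, and PLK1 averaged 210 and 207 CPM. The replication list as a whole summed to 5816, 5900 and 5971 CPM in the combination and 4060, 4104 and 4032 CPM in ERKi. The mitosis list took 0.858% ± 0.018 of all counts in the combination and 0.591% ± 0.0013 in ERKi (SD, n = 3 each; exact two-sided permutation test p = 0.1, the smallest that 3 against 3 libraries can give).

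**Figure D2:**
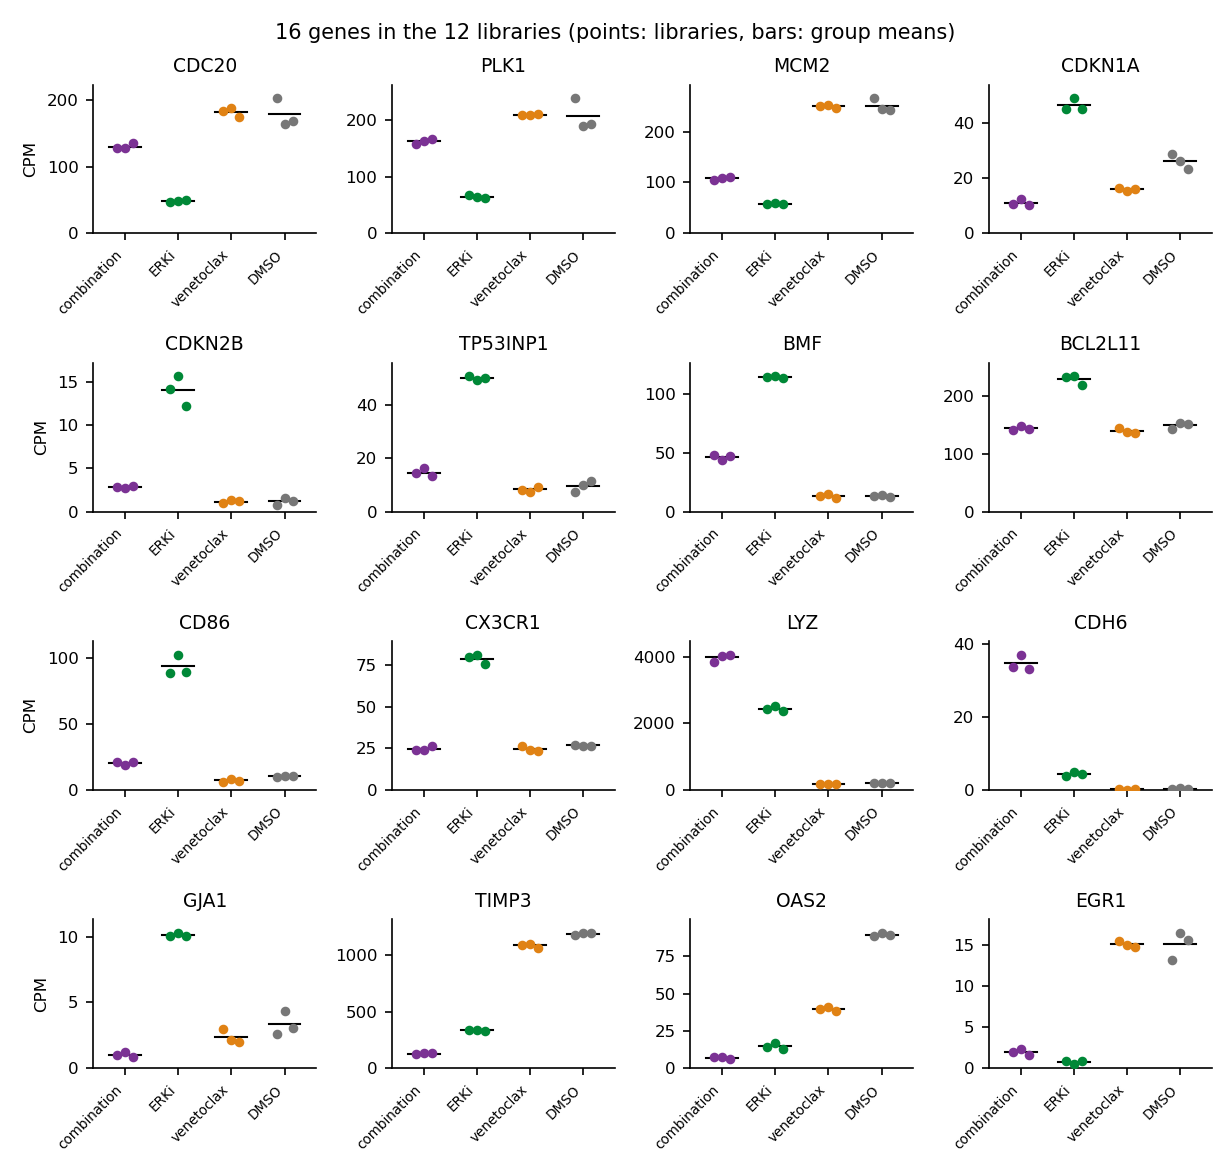
CPM of 16 genes in each of the 12 libraries, with points for libraries and bars for the means of 3, for the combination, ERKi, venetoclax alone and DMSO from left to right. For CDC20, PLK1 and MCM2 the combination lies between ERKi and the libraries without ERKi, for CDKN1A it lies under all other groups, and for CDH6 and LYZ it lies above them.

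Among genes that control G1, several brakes were lower in the combination. CDKN1A (p21), the p53 target that inhibits cyclin-dependent kinases, had 10.5, 12.5 and 10.4 CPM in the combination and 45.3, 49.1 and 45.3 CPM in ERKi. The log2 fold change was -2.07 (SE 0.0865, adjusted p = 5.17e-11), and the combination also lay under the averages of 15.9 CPM with venetoclax alone and 26.1 CPM with DMSO. CDKN2B (p15), an inhibitor of CDK4 and CDK6 on chromosome 9 (22002903 to 22009313), had 2.83, 2.76 and 2.93 CPM in the combination and 14.3, 15.7 and 12.2 CPM in ERKi (log2 fold change -2.3, SE 0.181, adjusted p = 4.06e-08), while cells without ERKi averaged 1.15 CPM with venetoclax and 1.17 CPM with DMSO. Both inhibitors were separated without overlap, which was a condition of their rank among the largest falls. CDKN1B (p27) was lower by 0.52 and RB1, the retinoblastoma protein gene, fell by 0.73. Of the 25 measured G1 genes 12 were higher and 5 lower. Among those higher were CDK4 (0.68), the phosphatase CDC25A (0.69), E2F1 (0.68), E2F4 (0.77) and E2F8 (0.71), and also CDKN2C (p18, 0.57), an inhibitor that moved against the others. CDK6 was lower (-0.42).

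DNA repair genes, many of which peak in S phase, were higher in 28 of 41 cases and lower in 2, with a median of 0.28. FANCA of the Fanconi pathway was at 57.6 ± 2.06 CPM in the combination and 30 ± 1.01 CPM in ERKi (SD, n = 3 each; log2 fold change 0.94, adjusted p = 1.21e-09), and the helicase BLM was higher by 0.61. The lower genes were ATM (-0.72), the kinase that senses double-strand breaks, and the ligase LIG4 (-0.48).

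Targets of p53 were lower in the combination. Of 40 measured, 29 were lower, 3 higher and 8 not called, with a median of -0.5, and 9 fell beyond 1.5-fold. All 12 targets of repair and metabolism and 6 of 8 of arrest were lower, against 7 of 14 with a role in death. TP53INP1, a p53 cofactor of stress and autophagy, had 14.3, 16.1 and 13.4 CPM in the combination and 50.7, 49.4 and 50.2 CPM in ERKi (log2 fold change -1.78, SE 0.117, adjusted p = 5.51e-09). BTG2, an antiproliferative factor, had 17.4, 19.1 and 19.1 CPM in the combination and 44.4, 44.8 and 47.7 CPM in ERKi, and its log2 fold change was -1.3. The groups were apart in both. MDM2, the ubiquitin ligase that degrades p53 and is induced by it, had 100.3, 96.1 and 102 CPM in the combination and 179, 176 and 183 CPM in ERKi (-0.85, SE 0.053, adjusted p = 3.22e-09). FAS, a death receptor, fell by 1.27, ZMAT3, a p53-induced RNA-binding protein, by 1.14, PLK2, a kinase of the p53 checkpoint, by 1.28, and FUCA1, a lysosomal fucosidase, by 0.91.

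MIR34AHG is the host transcript of the p53-induced microRNA miR-34a. It was among the 5 largest falls of called long noncoding genes with at least 2 CPM, SE up to 0.4 and groups apart. It had 3.75, 3.36 and 2.83 CPM in the combination and 11.9, 8.5 and 12.02 CPM in ERKi (log2 fold change -1.7, SE 0.163, adjusted p = 3.7e-07). The exceptions among p53 targets were PERP (0.85), PIDD1 (0.58) and PLK3 (0.56), and PLK3 lost its call in 4 of the alternatives tried. Over the whole list the combination libraries summed to 1515, 1540 and 1554 CPM and the ERKi libraries to 2233, 2240 and 2233 CPM, while venetoclax alone summed to 1595, 1570 and 1566 CPM and DMSO to 1593, 1694 and 1689 CPM. The ERKi libraries thus stood above the rest, and each combination library lay under every library without ERKi, if only slightly under those with venetoclax alone.

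**Figure D3:**
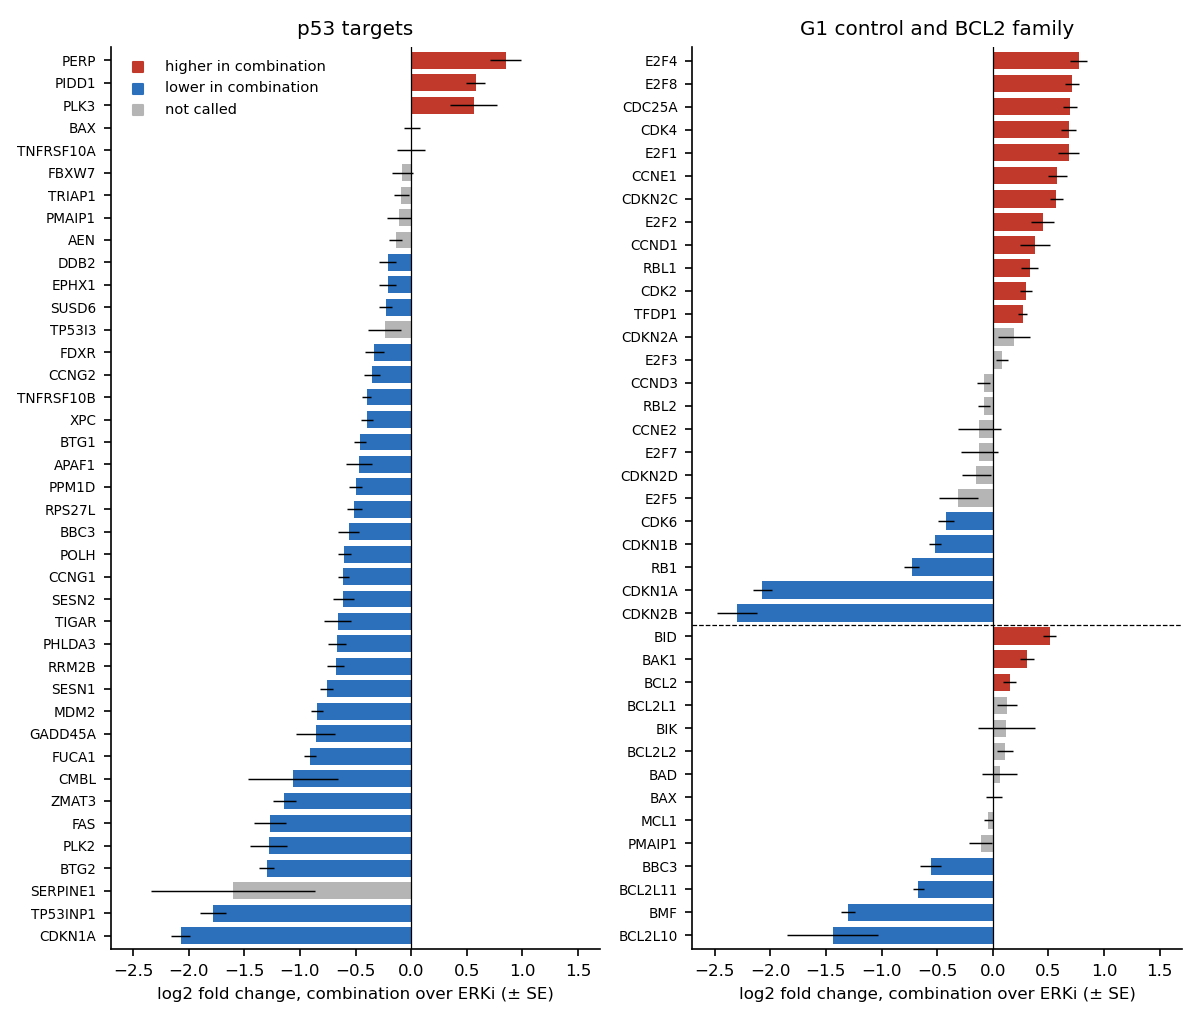
Log2 fold change (combination over ERKi) with its SE for each measured p53 target (left panel) and for G1 control and BCL2 family genes (right panel, divided by the dashed line), sorted by size; red and blue bars were called higher and lower, grey bars not called, and BCL2A1, near 0 CPM in both groups, is not drawn. CDKN1A is the lowest p53 target and CDKN2B the lowest of the G1 genes, and MCL1, BAX and BCL2L1 lie near 0.

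In the BCL2 family, which holds the target of venetoclax, 3 of 15 measured genes were higher and 4 lower, shares close to or under those of all genes, so the list as a whole shows no shift. Its killers split. BMF, a BH3-only protein on chromosome 15 (40087890 to 40108879), had 48.3, 43.4 and 47.4 CPM in the combination and 114, 115 and 113 CPM in ERKi (log2 fold change -1.3, SE 0.065, adjusted p = 3.75e-10). BCL2L11, which encodes BIM, had 141, 148 and 142 CPM in the combination and 233, 234 and 219 CPM in ERKi (-0.67, SE 0.0473, adjusted p = 1.23e-08). Neither overlapped. The combination level of BCL2L11 was that of cells without ERKi (139 CPM on average with venetoclax, 149 CPM with DMSO), and that of BMF was above theirs (13.2 CPM with venetoclax, 13.1 CPM with DMSO). BBC3 (PUMA), a BH3-only target of p53, had 12.1, 12.5 and 13.99 CPM in the combination and 19.7, 18.8 and 18.3 CPM in ERKi (-0.56, SE 0.0939, adjusted p = 0.000125). BID was higher by 0.51 and the pore former BAK1 by 0.31. BAX was at 0.01 (adjusted p = 0.943) and PMAIP1 (NOXA), the partner of MCL1, at -0.11 (0.384).

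Most survival genes were level. MCL1, the family member most often tied to venetoclax resistance, had 452, 455 and 462 CPM in the combination and 467, 461 and 478 CPM in ERKi. Its log2 fold change was -0.04 (adjusted p = 0.489), and 1 library of the combination lay above the lowest of ERKi. BCL2L1 (BCL-XL) was at 0.13 and not called (adjusted p = 0.239). BCL2 had 258, 255 and 261 CPM in the combination and 234, 234 and 229 CPM in ERKi and was 0.15 higher on the log2 scale (SE 0.059, adjusted p = 0.0431), and lost its call in 11 alternatives, among them each setting that left out a combination or ERKi library (adjusted p = 0.0767 to 0.144). BCL2L10 was lower (-1.44, adjusted p = 0.00729) at a low level, with 0.62 CPM on average in the combination and 1.71 CPM in ERKi. BCL2A1 had a mean of 0.05 CPM in both groups. Among 19 caspases, apoptosome genes and inhibitors, 9 were lower and 2 higher. CASP10 was lower by 0.71, CASP4 by 0.38 and CASP1 by 0.31, and the caspase inhibitor BIRC2 (cIAP1) by 0.46. CYCS, cytochrome c, was higher (0.39).

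Genes that ERK switches on did not move as a group. Of 44 measured genes of ERK output and feedback, 15 were higher and 16 lower, with a median of -0.03. EGR1, the immediate early factor whose promoter binds SRF and ternary complex factors, had 1.97, 2.33 and 1.62 CPM in the combination and 0.9, 0.462 and 0.885 CPM in ERKi. It was higher by 1.39 (SE 0.229, adjusted p = 9.61e-05) without overlap, yet averaged 15.04 CPM both with venetoclax alone and with DMSO. ETV5, an ETS factor of the pathway, was higher by 0.84, ETV4 by 0.86 (0.86 ± 0.06 CPM in the combination and 0.47 ± 0.08 CPM in ERKi, a call lost in 3 alternatives) and SPRY2, a Sprouty brake, by 0.4. DUSP6, the phosphatase of ERK itself, went the other way, with 1.62, 1.19 and 0.995 CPM in the combination and 1.9, 2.68 and 2.14 CPM in ERKi, a log2 fold change of -0.81. PHLDA1, an early feedback gene, had 2.99, 2.49 and 2.52 CPM in the combination and 11.99, 10.8 and 10.95 CPM in ERKi (-2.07), both far under the averages of 29.9 CPM with venetoclax and 27.8 CPM with DMSO.

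The EGR1 window (chr5:138465229-138465528, plus strand, RefSeq GRCh38.p14) is printed because EGR1 rose where DUSP6 fell. Capitals mark its 2 CArG boxes, the letters that SRF binds, at -105 to -96 and -83 to -74.
EGR1: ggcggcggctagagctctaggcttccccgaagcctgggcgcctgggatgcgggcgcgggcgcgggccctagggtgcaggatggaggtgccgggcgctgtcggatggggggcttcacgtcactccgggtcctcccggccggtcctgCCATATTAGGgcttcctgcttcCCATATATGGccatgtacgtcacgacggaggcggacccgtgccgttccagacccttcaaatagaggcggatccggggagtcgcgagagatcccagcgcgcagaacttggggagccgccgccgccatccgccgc
CArG boxes stood in 2 of 39 promoters of the list (5.13%) and in 1.29% of all promoters.

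AP-1 and other early genes also split. FOSB had 14.6, 14.1 and 13.2 CPM in the combination and 4.26, 3.28 and 4.1 CPM in ERKi (log2 fold change 1.85), and cells without ERKi had less, with 1.6 CPM on average with venetoclax and 1.12 CPM with DMSO. JUN, its partner, was lower by 0.83. DUSP2, a nuclear phosphatase, was higher by 1.77 and NR4A1, an orphan nuclear receptor, by 1.27, at no more than 5 CPM in any of the 6 libraries. CCN1 had 0 counts in every combination library and 0.995, 0.831 and 1.21 CPM in ERKi. The stromal markers POSTN and THY1 had the same 0 counts in the combination, and a stromal part in the fall of CCN1 was not tested. MYC, which ERK stabilises, had 243, 234 and 244 CPM in the combination and 160, 167 and 158 CPM in ERKi (0.57, SE 0.0565, adjusted p = 5.24e-07), against averages of 285 CPM with venetoclax and 306 CPM with DMSO. Its antagonists MXD1 (-0.76) and MXI1 (-0.73) were lower and its relative MYCL was higher (1.09), but MXD3, which belongs with the antagonists and is known from cycling cells, was higher (0.93).

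Genes of cell growth were mostly higher as well. Of 36 genes that build ribosomes, 29 were higher and 1 lower, with a median of 0.47: MRTO4, which assembles the large subunit, was at 0.94, the processome chaperone NOLC1 at 0.59, the polymerase I subunit POLR1A at 0.65 and the pseudouridine synthase DKC1 at 0.58. ODC1, the rate-limiting enzyme of polyamine synthesis and a MYC target, had 154, 165 and 164 CPM in the combination and 82.3, 81.4 and 77.8 CPM in ERKi (log2 fold change 1.0, SE 0.0447, adjusted p = 1.12e-10). The 1 lower gene of the list, RRN3, had 1.67, 1.73 and 1.94 CPM in the combination and 0.9, 9.19 and 7.92 CPM in ERKi, so 2 ERKi libraries made its fall, and it lost its call in 8 alternatives. Cytosolic ribosomal protein genes were higher in 28 of 41 cases (RPS19 by 0.52) and lower in 3. Proteasome genes were higher in 24 of 29 cases (PSME2, of the activator of the proteasome, by 0.73) with 0 lower. RPS3A was at -0.14, a call lost without ERKi replicate 2 (adjusted p = 0.062). Near-identical pseudogene copies make the counts of single ribosomal protein genes uncertain.

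Amino acid and stress genes did not move as one programme. Of 45 measured ATF4 genes 22 were higher and 10 lower, and ATF4 itself was at -0.02 (adjusted p = 0.8). PHGDH, the first enzyme of serine synthesis, had 37.8, 36.9 and 38.9 CPM in the combination and 14.3, 11.6 and 12.3 CPM in ERKi (log2 fold change 1.57), against averages of 173 CPM with venetoclax and 184 CPM with DMSO. PSAT1, the next enzyme, was higher by 0.66, CBS, which makes cystathionine, by 1.15, and the leucine transporter SLC7A5 and its partner SLC3A2 by 1.08 and 0.75. SLC38A1, a glutamine transporter, had 11.5, 9.91 and 11.1 CPM in the combination and 37.4, 39.5 and 36.5 CPM in ERKi and fell by 1.8. CHAC1 (0.11, adjusted p = 0.606) and DDIT3 (-0.05, adjusted p = 0.759), which mark strong ATF4 activity, were not called. In central carbon metabolism 30 of 49 genes were higher, among them ENO1 by 0.7, citrate synthase (CS) by 0.47, PGK1 by 0.42 and LDHA by 0.37. The list had 4 lower genes, among them PDP1, the phosphatase that activates pyruvate dehydrogenase, by 0.77. In lipid metabolism FASN, fatty acid synthase, was higher by 0.78, and ABCA1, which exports cholesterol, was lower by 0.89.

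Genes of mitochondria were mostly higher, but those of fission were not moved as a set. DNM1L, which encodes Drp1, had 83.9, 87.4 and 87.5 CPM in the combination and 87.5, 90.7 and 90.7 CPM in ERKi. The groups overlapped slightly, and the log2 fold change was -0.05 (SE 0.0525, adjusted p = 0.405), while cells without ERKi averaged 138 CPM with venetoclax and 137 CPM with DMSO. Of 12 fission genes 5 were higher and 2 lower. The receptors for Drp1 went different ways: FIS1 was higher by 0.46 and MIEF1 by 0.56, MFF was lower by 0.2, and MIEF2 was at -0.33 (adjusted p = 0.0572). MTFP1 (0.7) and MTFR2 (0.74), which promote fission, were higher, and MTFR2 is also known as a gene of cycling cells. Of 14 fusion and cristae genes 8 were higher and 3 lower: MFN2 was higher by 0.4, MFN1 lower by 0.27, OMA1, the protease that cuts OPA1 under stress, lower by 0.79, and OPA1 was at 0.05 (adjusted p = 0.497).

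Import and protease genes were higher in 12 of 15 cases with 0 lower, among them the pore TOMM40 (0.96), TIMM50 of the inner membrane (0.68) and the matrix protease LONP1 (0.74). In contrast, 5 of 9 mitophagy genes were lower and 0 higher. BNIP3 (-0.66) and PINK1 (-0.6) mark mitochondria for removal, and the receptors OPTN (-0.56) and NBR1 (-0.35) link cargo to autophagosomes. TAX1BP1 (-0.13), the other one, lost its call in 5 alternatives. Nuclear-encoded respiratory chain genes were higher in 36 of 51 cases and lower in 2, with a median of 0.27, such as ATP5MC1 of ATP synthase (0.91), ATP5F1D (0.75) and CYC1 of complex III (0.72).

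Of the 13 mRNAs of the mitochondrial genome 9 were higher and 1 lower. COX3 had 9706, 10430 and 9231 CPM in the combination and 5516, 4852 and 5698 CPM in ERKi (log2 fold change 0.87, SE 0.071, adjusted p = 6.42e-08), and ND4 was higher by 0.71, while ND3 was lower by 0.54. Together the 13 took 6.15, 6.87 and 5.57% of all counts in the combination and 4.95, 4.4 and 4.96% in ERKi (exact two-sided permutation test p = 0.1, the smallest possible here). They take enough of each library to bear on scaling, but with the 13 left out of the scaling the median over all genes tested moved no further than -0.017.

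Monocyte genes did not move as a group either: 14 of 50 were higher and 19 lower. Of 25 surface and scavenger receptors 10 were lower and 3 higher, with a median of 0.01, so the genes named next do not stand for the list. CD86, a costimulatory ligand on chromosome 3 (122055362 to 122121136), had 20.95, 18.7 and 20.95 CPM in the combination and 88.2, 102 and 89.4 CPM in ERKi (log2 fold change -2.21, SE 0.0845, adjusted p = 1.84e-11). CX3CR1, the fractalkine receptor of patrolling monocytes, had 23.7, 23.7 and 26.2 CPM in the combination and 80.1, 81.4 and 75.4 CPM in ERKi (-1.69, SE 0.0615, adjusted p = 1.35e-11), and cells without ERKi were near the combination in the plot of genes by library. The groups were apart in both genes, which was a condition of their ranks among all called genes. The scavenger receptor CD36 fell by 1.03, the efferocytosis kinase MERTK by 1.69, the adaptor TYROBP by 0.93 and the alarmin S100A8 by 1.25, the last with 33.7, 36.0 and 37.8 CPM in the combination and 86.3, 87.0 and 83.0 CPM in ERKi.

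Genes of granule and secreted proteins split, with 6 of 15 higher, 7 lower and a median of -0.16, and 5 of 10 lineage factors were higher and 2 lower. LYZ, which encodes lysozyme, had 3855, 4040 and 4076 CPM in the combination and 2427, 2513 and 2361 CPM in ERKi (0.71, SE 0.0418, adjusted p = 1.86e-09), and only 176 CPM on average with venetoclax alone and 209 CPM with DMSO. Neutrophil elastase (ELANE) was higher by 1.1 and myeloperoxidase (MPO) by 1.64, MPO at 3.11 ± 0.32 CPM in the combination and 1.0 ± 0.23 CPM in ERKi (SD, n = 3 each). IRF8, a factor of monocyte commitment, was at 1739 ± 48.4 CPM in the combination and 1146 ± 28.5 CPM in ERKi and higher by 0.6. In the leukaemia programme 8 of 18 genes were lower and 2 higher. MEF2C had 71.3, 73.0 and 75.7 CPM in the combination and 179, 176 and 175 CPM in ERKi (-1.27, SE 0.0524, adjusted p = 4.48e-11), PBX3 was lower by 0.69 and MEIS1 by 0.25, and GATA2, a factor of stem and progenitor cells, was higher by 2.48 from a low level (2.55 ± 0.12 CPM in the combination, 0.45 ± 0.1 CPM in ERKi).

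Inflammation genes were lower in 17 of 35 cases and higher in 5, with a median of -0.26. IL1B, the cytokine interleukin 1 beta, had 9.06, 8.67 and 8.02 CPM in the combination and 24.3, 27.9 and 28.8 CPM in ERKi, a fall by 1.65. TLR1 was lower by 1.33, TLR4 by 0.71, the adhesion ligand ICAM1 by 1.11 and the prostaglandin synthase PTGS2 by 1.19, whereas the Toll-like receptor kinase IRAK1 was higher by 0.71. Growth factor receptors and their signalling genes were lower in 26 of 60 cases and higher in 9. GHR, the growth hormone receptor, had 7.74, 9.05 and 8.43 CPM in the combination and 46.3, 48.3 and 43.3 CPM in ERKi (-2.45, SE 0.0825, adjusted p = 9.45e-12). OSMR, the oncostatin M receptor, fell by 1.82. In the PI3K, AKT and FOXO branch 10 of 17 genes were lower, among them FOXO1 by 1.43 and IRS1 by 0.84, and 4 were higher. TXNIP, a FOXO and glucose response gene, was higher by 0.58. Autophagy and lysosome genes were lower in 24 of 61 cases and higher in 13, with a median of -0.08. GABARAPL1, a coat protein of autophagosomes, was lower by 0.87. ATP6V0A1, a subunit of the proton pump, was lower by 1.59, while the pump as a list had 5 of 15 genes higher and 5 lower.

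Interferon-stimulated genes were lower. Of 42 measured, 27 were lower, 4 higher and 11 not called, with a median of -0.58, and 11 fell beyond 1.5-fold. OAS1, on chromosome 12 (112906962 to 112933219), makes the messenger that activates RNase L, and had 10.02, 11.7 and 9.74 CPM in the combination and 33.2, 35.2 and 34.5 CPM in ERKi (log2 fold change -1.71, SE 0.123, adjusted p = 1.55e-08). OAS2, its relative, had 7.14, 7.58 and 6.23 CPM in the combination and 14.1, 16.7 and 12.99 CPM in ERKi (-1.06). The libraries of the groups did not overlap. SAMD9L, an antiviral and antiproliferative factor, fell by 1.2, TRIM22, a restriction factor, by 0.84, and STAT2, a factor that carries the signal, by 0.87. HERC5, the ligase for ISG15, went the other way (1.69), with 5.62, 8.61 and 8.8 CPM in the combination and 2.75, 2.22 and 2.14 CPM in ERKi.

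Venetoclax also lowered this list where ERK was not inhibited, and these 2 comparisons share no library. Against DMSO venetoclax alone changed 61 genes, 0.402% of those tested, and 27 of its 58 falls were on the interferon list, which has 42 genes. Without DMSO replicate 1, which stood apart from its group in a measure of gene span, it changed 98, with 29 on the list. Of those 27 genes, 20 were also lower in the combination against ERKi, out of 27 listed genes lower there, 1 (CMPK2) was higher and 6 were not called. The starting levels differed: OAS2 averaged 39.6 CPM with venetoclax and 89.7 CPM with DMSO, and MX1, a dynamin-like antiviral GTPase, 15.9 and 47.4 CPM, against 1.94 ± 0.17 CPM in the combination and 2.99 ± 0.44 CPM in ERKi (SD, n = 3 each; log2 fold change -0.62). Summed over the list, the levels were 1049, 1032 and 1070 CPM in the combination, 1355, 1349 and 1345 CPM in ERKi, 1306, 1270 and 1267 CPM with venetoclax and 1889, 1883 and 1885 CPM with DMSO.

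The IFIT1 window (chr10:89392373-89392672, plus strand, RefSeq GRCh38.p14) shows what the list shares at its promoters. Capitals mark the letters GAAANNGAA, the core of the interferon-stimulated response element, on either strand.
IFIT1: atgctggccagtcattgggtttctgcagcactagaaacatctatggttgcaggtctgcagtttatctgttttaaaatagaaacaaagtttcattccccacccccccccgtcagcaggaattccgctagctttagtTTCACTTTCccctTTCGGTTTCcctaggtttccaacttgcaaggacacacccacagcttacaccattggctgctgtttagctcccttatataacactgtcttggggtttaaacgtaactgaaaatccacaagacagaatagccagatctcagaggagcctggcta
Here both runs read on the opposite strand, at -115 to -107 and -102 to -94. The core stood in 21 of 31 promoters found for the list (67.7%), against 8.29% of all promoters and 6.84% of those of tested genes. IFIT1 itself, an RNA-binding effector, was at -1.55 (SE 0.386, adjusted p = 0.00309) in the combination against ERKi.

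**Figure D4:**
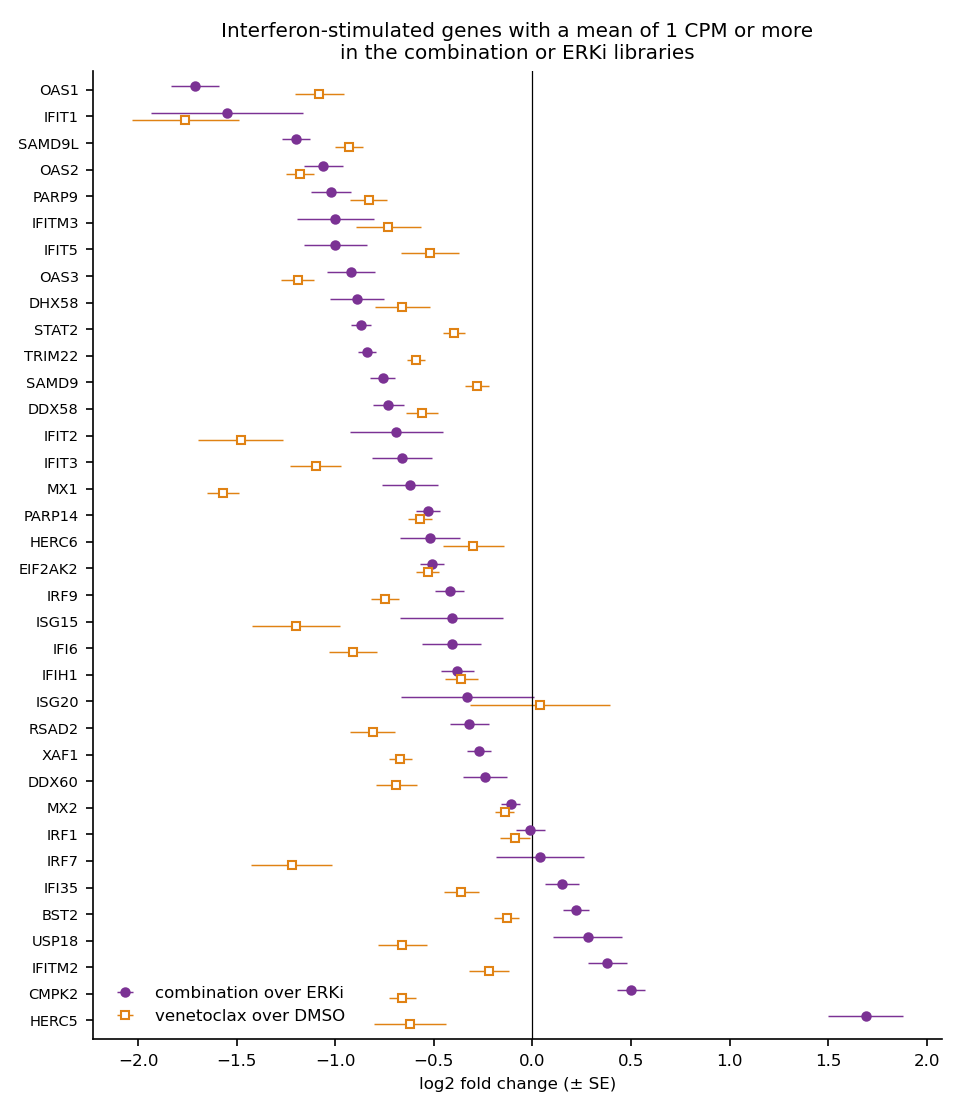
Log2 fold change with its SE of 36 interferon-stimulated genes with a mean of 1 CPM or more in the combination or ERKi libraries, for the combination over ERKi (filled circles) and for venetoclax over DMSO (open squares). In 28 of the 36 genes both points lie left of 0, and HERC5, CMPK2 and IFITM2 are among those where they lie on different sides.

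Without ERKi, venetoclax changed few genes outside the interferon list, and the difference between both settings was tested directly. For a test of the interaction, that is, of whether the effect of venetoclax differed with and without ERKi, 24 genes were fixed. Of these 24 genes, 19 were called in the combination against ERKi and 4 with venetoclax alone. The shares over all genes tested were 50.9% and 0.402%. The interaction was called for 18 of the 24, against 39.2% of all genes. It contains the difference of the combination from ERKi, and CDC20, CD86 and CDKN1A were also among the largest changes of that comparison. The number called among the 24 is therefore no separate support for it. CDC20 was higher by 1.42 with ERKi present, and its interaction was 1.39. For CDKN1A, which venetoclax alone lowered too, the interaction was -1.35, and for BMF it was -1.3. Of the 24, DNM1L and MCL1 were among the 6 without a called interaction.

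Single genes changed far more than these lists. CDH6, a cadherin on chromosome 5 (31193686 to 31329146) that is better known from kidney and tumours of epithelial origin, was the largest rise among called protein-coding genes with a mean of at least 5 CPM and groups apart. It had 33.7, 37.1 and 33.2 CPM in the combination and 3.79, 4.8 and 4.33 CPM in ERKi, an 8.03-fold difference (log2 fold change 3.0, SE 0.178, adjusted p = 2.05e-09), and averaged 0.22 CPM with venetoclax and 0.27 CPM with DMSO. ID1, an inhibitor of differentiation factors and a target of BMP signalling, had 39.2, 37.97 and 38.4 CPM in the combination and 11.8, 8.91 and 10.3 CPM in ERKi (1.9, SE 0.108, adjusted p = 1.28e-09). Both genes were ranked only among genes without overlap between the groups. PCOLCE2, an enhancer of procollagen processing, was higher by 2.1, IGSF10, a secreted immunoglobulin superfamily protein, by 1.91, the ligand WNT7B by 1.83, lipoprotein lipase (LPL) by 1.82, the matrix protein THBS4 by 1.67, the prolactin receptor PRLR by 1.57 and the myeloid hexokinase HK3 by 1.56. P2RY2, a receptor for extracellular ATP, had 267, 266 and 273 CPM in the combination and 132, 138 and 141 CPM in ERKi (0.98, SE 0.0426, adjusted p = 8.92e-11).

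GJA1 (connexin 43), a gap junction protein on chromosome 6 (121435646 to 121449727), was the largest fall under that rule, with 0.962, 1.19 and 0.838 CPM in the combination and 10.04, 10.3 and 10.06 CPM in ERKi (log2 fold change -3.34, SE 0.221, adjusted p = 5.99e-09). The groups were apart, as that rule required. GJA1 is also a gene of stromal cells, whose markers were lower in the combination, and their part in its fall was not tested. TIMP3, an inhibitor of metalloproteinases on chromosome 22 (32801705 to 32863041), had the smallest adjusted p of all falls, with 121, 132 and 129 CPM in the combination and 336, 340 and 330 CPM in ERKi (-1.4, SE 0.04, adjusted p = 2.05e-12), against averages of 1087 CPM with venetoclax and 1189 CPM with DMSO. The calcium channel subunit CACNB4 fell by 2.41, the lipid phosphatase PLPP3 by 2.29 and the atypical cadherin FAT1 by 2.06. Polyadenylated transcripts of the histone genes H2AC6 and H2BC5, which are known from cells that have left the cycle, fell by 2.25 and 2.16.

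Of 1390 long noncoding genes tested, 138 were higher and 232 lower, against 3658 and 3238 of 12205 protein-coding genes. Ranks were taken only among called long noncoding genes with a mean of at least 2 CPM, SE up to 0.4 and groups apart. The largest rise among these was LOC729737 (1.49), followed by VPS9D1-AS1 (1.25) and TRIM52-AS1 (1.18). LOC729737 had 10.9, 7.04 and 7.13 CPM in the combination and 2.75, 2.86 and 3.31 CPM in ERKi. The largest fall under the same conditions was WWP1-AS1 (-2.19). No label gives the strand setting of the counting, so reads of an antisense gene and of its partner cannot be told apart.

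One feature cut across the lists. Protein-coding genes of short span, from first to last annotated base, had a higher median fold change than long ones, given here as a description with no test. In the shortest of 5 classes of equal size (2439 genes of up to 10.2 kb) the median log2 fold change was 0.19, with 42.2% higher and 14.6% lower, and in the longest class (2439 genes of 91 kb or more) it was -0.16, with 15.8% higher and 40.8% lower. The classes between had medians of 0.09, 0.03 and -0.04. Within each of 5 bands of expression level the shortest class lay above the longest, by medians of -0.02 against -0.27 in the lowest band and 0.21 against -0.11 in the highest, and without the listed genes the medians were 0.18 and -0.16.

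By library, the mean log2(CPM + 1) of the shortest minus the longest class was -0.31, -0.268 and -0.295 in the combination and -0.58, -0.562 and -0.567 in ERKi, without overlap. With venetoclax alone it was -0.371, -0.337 and -0.379, and with DMSO -0.155, -0.406 and -0.398, so DMSO replicate 1 stood apart from its own group. RNA integrity and fragment length, which could move with such a measure, are not in the labels, and their part was not tested.

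**Figure D5:**
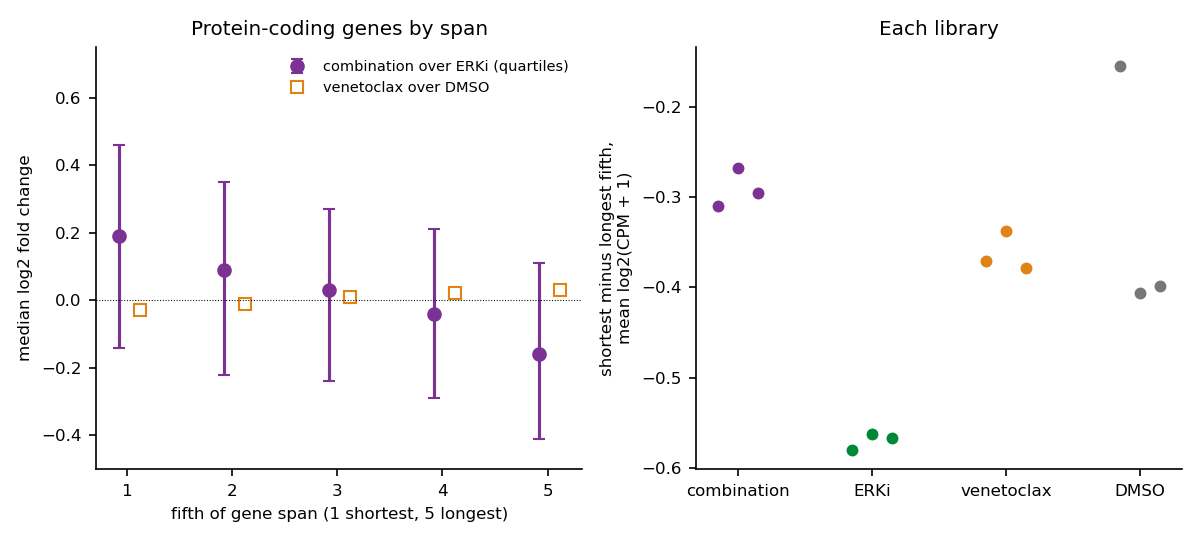
Left panel, median log2 fold change of protein-coding genes in 5 classes of gene span, for the combination over ERKi (filled circles, bars from the lower to the upper quartile) and venetoclax over DMSO (open squares). Right panel, mean log2(CPM + 1) of the shortest class minus that of the longest in each library, for the combination, ERKi, venetoclax alone and DMSO from left to right. The medians of the combination over ERKi are 0.19 in the shortest class and -0.16 in the longest, and the ERKi libraries lie lowest in the right panel.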

How the data were processed

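Polyadenylated RNA of OCI-AML3 cells was sequenced paired-end in 12 libraries, per the labels. The deposited table holds raw read counts per gene symbol, made by the authors with HISAT2 and HTSeq on hg38, per the submitters' processing notes, which also name DESeq2 and give no versions. None of its 54628 symbols is blank, and 51616 matched RefSeq (GRCh38.p14), the source of positions, gene classes and promoters.

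All 12 libraries (19199296 to 21275065 counts; time 24 h) entered 1 fit in edgeR 4.0.16 with limma 3.58.1 under R 4.3.3: TMM scaling, a minimum count of 10 and total of 15, 1 coefficient per group, a quasi-likelihood test with 8 residual degrees of freedom, and Benjamini-Hochberg adjustment over 15173 genes. SE is the log2 fold change over the square root of F. Changes beyond 1.5-fold used glmTreat. Motif searches and figures used Python 3.11.15, pandas 2.3.3, numpy 2.4.6 and matplotlib 3.10.9. The fit was tested on simulated data. Replicates differed by 2.34 to 5.52 times counting noise (chi-square over degrees of freedom), so none was counted as a repeat of another.

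Members and the 33 gene lists (1118 of 1191 entries tested) were chosen with earlier results of these data known. The naming rule took called protein-coding genes with a mean of at least 5 CPM, SE up to 0.4 and no overlap (the 15 largest changes, 10 smallest adjusted p and 8 largest CPM changes in each direction), 5 long noncoding genes each way with at least 2 CPM, up to 6 called genes per list by adjusted p, and 24 fixed genes. Other genes were chosen after their values were seen. Alternatives were RLE scaling, DESeq2 1.42.0, limma-voom, other filters and fold thresholds, the replicate block, the 6 libraries alone, each library left out and, added after seeing the data, scaling without mitochondrial mRNAs. A few genes are not reported here.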

Additional observations from a re-analysis of the deposited data

Results flagged for a closer look

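For 18 of 24 genes fixed for it, the effect of venetoclax with ERKi (combination over ERKi) differed from its effect without ERKi (venetoclax over DMSO) by edgeR's interaction test at an adjusted p under 0.05. The share called over all genes tested is 39.2%. The interaction contains the difference of the combination from ERKi, in which some of the 24 were among the largest changes. The number called is therefore no separate support for that difference. The interaction, in log2 units, was above 0 for CDC20 (1.39), EGR1 (1.39), LYZ (0.96), MX1 (0.95), MCM2 (0.91), MYC (0.67), CCNB1 (0.64) and TXNIP (0.61). It was below 0 for CD86 (-1.69), TP53INP1 (-1.57), MERTK (-1.46), CDKN1A (-1.35), BMF (-1.3), CD36 (-0.96), DUSP6 (-0.91), MDM2 (-0.71), BBC3 (-0.58) and BCL2L11 (-0.56). MX1 differs from the others above 0 in its direction: venetoclax lowered it in both settings, by a log2 fold change of -0.62 with ERKi and -1.57 without, so its interaction stands for a smaller fall.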

How the results depend on the processing

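The 4023 higher and 3694 lower genes were 4126 and 3579 with RLE scaling, 4023 and 3423 with DESeq2, 4014 and 3735 with limma-voom, 4285 and 3370 without a filter, and 4213 and 4160 with the 6 libraries alone. Leaving out 1 of the 12 libraries at a time gave 3422 to 4496 higher and 3220 to 4136 lower, and 273 to 467 higher and 357 to 540 lower beyond 1.5-fold. A threshold of 1.2-fold gave 1923 higher and 1770 lower, and a threshold of 2-fold 49 and 135, by construction. The labels do not say whether same-numbered libraries of the combination and ERKi belong together. Their deviations from the group means correlated by 0.064, 0.046 and -0.068, and those of different-numbered libraries by -0.159 to 0.112. Such small correlations over all genes cannot settle whether libraries were paired. With a replicate block the counts were 3932 and 3607. Of 254 named genes, 247 of those called kept their call in every alternative that gave a value and 2 did not. BCL2 lost it in 11 (adjusted p = 0.0518 to 0.144) and RPS3A in 2, and the cause was not tested. No called gene among those recomputed reversed its direction. Among the named genes that were not called, 1 changed sign without ERKi replicate 1 and 1 without combination replicate 2. The median over all genes lay between -0.017 and 0.008 under the scalings tried. Venetoclax alone called 61 genes, 98 without DMSO replicate 1, 33 to 56 without any other library, and 242 with no filter. None of the 18 called interactions lost its call. PMAIP1, BCL2 and MCL1 gained one in some. Depth limits genes near 1 CPM, about 20 counts in a library.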
